A study of Mus musculus with 80 samples.

Results

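The 9 interferon-stimulated genes Irf7, Irf1, Ifit1, Ifit2, Ifit3, Isg15, Usp18, Oasl2, and Rtp4 were followed through every way in which microglial RNA was prepared from the mouse brain. They were chosen by gene symbol, and no measured value entered the rule, but earlier results of these data were known when they were chosen. All 9 were present among the 15919 genes of the count table on sorting and the 16000 genes of the count table on cell preparation, and all 9 passed the filter on low counts in each of the 6 model fits. Every mouse carried Cx3cr1(Jung)-cre/Ert2+ and NuTRAP+ and had received tamoxifen at about 3 months of age, at 100 mg/kg, so that the controls shared both the alleles and the drug. NuTRAP is a reporter that puts an eGFP tag on the ribosomes of cells in which Cre has acted. TRAP libraries hold the RNA pulled down with those ribosomes, and Input libraries hold the RNA of the same lysate before the pull-down. Cre was driven from the Cx3cr1 locus, which is active in microglia and also in macrophages at the borders of the brain, so the tag is not limited to microglia. Mice of both sexes were harvested at 5 to 8 months of age.

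The sort comparison had 48 libraries, an Input and a TRAP library for each preparation. Tissue (brain homogenate, 4 mice) and Cell (papain and mechanical dissociation at 37 °C with no sort, 4 mice) came from the same animals, numbered 946 to 949. The 4 sort methods were autoMACS (CD11b microbeads, 4 mice), Tyto (cartridge-based FACS, 5 mice), FACSAria (cytometer-based FACS, 4 mice), and autoMACS to Tyto (beads and then FACS, 3 mice), with both FACS gates set on CD11b, CD45, and eGFP. The preparation comparison had 32 libraries from 4 mice per group, namely Tissue, Dounce (mechanical dissociation at 4 °C with a Percoll step), and Cell suspensions made without or with actinomycin D, triptolide, and anisomycin, called Cell (-) Inhibitors and Cell (+) Inhibitors. The inhibitors block transcription and translation while the brain is being dissociated. The Cell (-) and Cell (+) Inhibitors suspensions shared mice 1361, 1362, 156, and 157, the Dounce mice were 179 to 182, and the Tissue libraries of this comparison came again from mice 946 to 949, so the tissue references of the 2 comparisons are not independent. By the study's account, RNA of the Dounce-Input group came from entire brains and that of the other preparations from a single hemisphere. The sorted mice had no tissue library of their own.

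Libraries of the sort comparison held 7129464 to 20168116 expected counts and those of the preparation comparison 2471448 to 14650287, with the 4 Dounce-TRAP libraries the shallowest (2471448 to 4724538). Levels are given as CPM (counts scaled to a common library total), scaled within each table. The tables were normalized separately, so levels were compared only within a table. The labelled tissue and cells were checked with markers. The summed level of 10 microglial markers was 262 to 411 CPM in Tissue-Input and 4758 to 6204 CPM in Cell-Input of the sort comparison, and 25439 to 53968 CPM in the sorted libraries of either fraction. The summed level of 6 neuronal markers was 5036 to 5328 CPM in Tissue-Input, 386 to 904 CPM in Cell-Input, and at most 37 CPM in any sorted library. In these bulk libraries a change in the number of cells of a type and a change in RNA per cell cannot be told apart.

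Interferons are cytokines that signal through receptors on the cell surface to STAT and IRF transcription factors, which switch on a large set of antiviral genes. Irf7 encodes a transcription factor that amplifies type I interferon production, and Irf1 encodes a transcription factor induced by interferon gamma and by other inflammatory signals. Ifit1, Ifit2, and Ifit3 encode proteins that bind foreign RNA or one another and restrict viral translation. Isg15 encodes a ubiquitin-like modifier that is attached to other proteins, and Usp18 removes it and restrains signaling from the type I interferon receptor. Oasl2 belongs to the oligoadenylate synthetase-like family, and Rtp4 encodes a receptor transporter protein with antiviral activity. Microglia express many of these genes at a low level at rest and raise them on exposure to interferon or to viral nucleic acid.

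The promoters were examined for the elements through which interferon acts. The interferon-stimulated response element was searched as GAAANNGAAA or its reverse TTTCNNTTTC, and the gamma-activated site as TTCNNNGAA, on both strands, in RefSeq promoters of GRCm38.p6 that span 250 bases before to 50 bases after each start. Promoters were matched for 7 of the 9 genes, with 9 promoters in all. The response element occurred in 3 of these 9 promoters, those of Ifit1, Ifit3, and Isg15, against 3.44% of 32851 promoters of the same length. The gamma-activated site occurred in 2 of them, in 1 of the 2 promoters of Irf1 and 1 of the 2 of Ifit2, against 8.3% of all promoters. Neither set of letters was found in the promoters of Irf7 and Oasl2. A match describes the letters alone. The stretches that hold the matches are shown, and no link between the letters and the levels was tested. Ifit1 and Ifit3 hold the same pair of response elements, while 1 of the 2 promoters of Ifit2, which lies beside them, holds a gamma-activated site. Each is written 5′ to 3′ on the strand of the gene, with capitals marking the matched element. In Isg15, 3 matches overlap within the capitals.
Irf1, chr11:53769894-53769962, plus strand: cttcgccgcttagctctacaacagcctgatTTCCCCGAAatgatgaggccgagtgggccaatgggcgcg
Ifit1, chr19:34640755-34640843, plus strand: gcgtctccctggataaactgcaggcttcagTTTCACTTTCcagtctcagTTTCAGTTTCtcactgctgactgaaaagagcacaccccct
Ifit2, chr19:34550444-34550491, plus strand: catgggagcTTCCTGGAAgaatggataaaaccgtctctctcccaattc
Ifit3, chr19:34583343-34583446, plus strand: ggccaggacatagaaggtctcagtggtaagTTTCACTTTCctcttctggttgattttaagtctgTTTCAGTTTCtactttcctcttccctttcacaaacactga
Isg15, chr4:156200845-156200926, minus strand: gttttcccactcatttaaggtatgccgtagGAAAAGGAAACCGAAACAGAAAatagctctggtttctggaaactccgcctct

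The 3 Ifit genes lie together on chromosome 19 of mm10 in the deposited annotation, with Ifit2 at 34550694 to 34576534, Ifit3 at 34583529 to 34588982, and Ifit1 at 34640889 to 34650009, all on the plus strand. Irf1 lies on chromosome 11 (53770014 to 53778374, plus strand) and Irf7 on chromosome 7 (141263183 to 141266424, minus strand). Isg15 lies on chromosome 4 (156199424 to 156200818, minus strand), Usp18 on chromosome 6 (121245906 to 121270917, plus strand), Oasl2 on chromosome 5 (114896934 to 114912245, plus strand), and Rtp4 on chromosome 16 (23609919 to 23614222, plus strand). Reads of Ifit3 and of Ifit1 could be shared with the related genes Ifit3b and Ifit1bl1, which was not examined. A transcript model of Rtp4 overlaps Gm45338 on the same strand. The levels of Ifit3, Ifit1, and Rtp4 are uncertain to that extent.

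The first comparison asked whether making a cell suspension from brain tissue changed these genes. All 9 rose in Cell-Input over Tissue-Input, by 2.07-fold (Ifit2) to 9.81-fold (Rtp4). A gene was called where the adjusted p of edgeR's quasi-likelihood test was under 0.1 and the fold change above 2, and 28.5% of the 15750 genes tested were called higher and 17.5% lower in this contrast. Among the transcription factors, Irf7 was at 1.27, 2.24, 1.44, and 0.827 CPM in Tissue-Input of mice 946, 947, 948, and 949 and at 9.22, 15.2, 13.2, and 15.0 CPM in Cell-Input of the same mice. Irf1 was at 5.47, 5.18, 3.11, and 5.35 CPM in Tissue-Input and at 38.1, 30.4, 29.3, and 28.8 CPM in Cell-Input. Every suspension stood above every homogenate for both factors, and Irf7 rose by 3.28 ± 0.39 (log2, SE, adjusted p = 1.13e-07, edgeR) and Irf1 by 2.82 ± 0.24 (adjusted p = 5.46e-10, edgeR).

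The 3 Ifit genes rose too. Ifit1 was at 2.15, 3.08, 1.58, and 1.17 CPM in Tissue-Input and at 9.33, 12.4, 11.9, and 8.54 CPM in Cell-Input, a log2 fold change of 2.50 ± 0.38 (adjusted p = 3.93e-06, edgeR). Ifit3 was at 10.1, 16, 10.8, and 10.7 CPM in Tissue-Input and at 24.5, 33.9, 27.7, and 30.2 CPM in Cell-Input, a log2 fold change of 1.38 ± 0.32 (adjusted p = 0.000585, edgeR). Ifit2 was at 10.3, 7.74, 8.35, and 8.44 CPM and at 19.2, 19.5, 15.3, and 13.6 CPM. Its log2 fold change of 1.05 ± 0.31 (adjusted p = 0.00423, edgeR) lay close to the 2-fold limit. It was 0.91 with the mouse as a block or with only these 2 groups fitted, 0.96 with DESeq2's size factors or DESeq2, and 0.90 with limma. It was 0.97 to 1.00 without Tissue-Input of mouse 947 or Cell-Input of mouse 946 or 947. In each of these fits it was no longer called.

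Isg15, the protease gene Usp18, and the remaining effectors rose as well. Isg15 was at 1.46, 2.43, 0.974, and 1.96 CPM in Tissue-Input and at 6.0, 8.02, 7.96, and 9.74 CPM in Cell-Input, a log2 fold change of 2.31 ± 0.34 (adjusted p = 2.78e-06, edgeR). Usp18 was at 0.566 to 1.03 CPM and at 5.41 to 6.73 CPM, a log2 fold change of 3.11 ± 0.33 (adjusted p = 1.27e-08, edgeR). Oasl2 went from 2.22 to 4.15 CPM up to 15.4 to 22.9 CPM, and Rtp4 from 0.556 to 1.77 CPM up to 8.83 to 9.89 CPM. Their log2 fold changes were 2.69 ± 0.35 and 3.29 ± 0.34. For each of the 9 genes the Cell-Input and Tissue-Input libraries did not overlap, which was true of 75.5% of all genes tested, in either direction.

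The microglial share of the RNA moved in the same direction. All 10 microglial markers were called higher in Cell-Input, with a median log2 fold change of 4.30, against 2.69 for the 9 interferon-stimulated genes and 0.17 for all genes tested. All 6 blood leukocyte markers (median 4.29) and all 6 border macrophage markers (median 4.01) were called higher as well. So were all 6 endothelial markers (median 4.67), both mural markers (3.20), all 5 oligodendrocyte markers (2.15), and 4 of 6 astrocyte markers (1.86), while all 6 neuronal markers were called lower (-2.92). The summed endothelial level was 46.5 to 60.9 CPM in Tissue-Input and 865 to 1616 CPM in Cell-Input. The part of these cell markers in the result was not tested. Of 73 further genes of the interferon pathway, 61 were called higher and 1 lower, with a median log2 fold change of 2.80. All 9 genes of nucleic acid sensing rose (median 2.97), as did 42 of 47 effectors, 3 of 4 receptors, 4 of 7 regulators, and 3 of 6 signaling genes. The largest changes were those of Socs3 (5.33), a feedback inhibitor of cytokine signaling, the endosomal RNA sensor Tlr7 (5.31), the exonuclease gene Isg20 (5.08), the antiviral radical SAM enzyme gene Rsad2 (4.97), and Irf5 (4.66). The RNA-editing enzyme gene Adar was the 1 gene that fell (-1.14). Tlr7 and Irf5 are expressed by resting myeloid cells too.

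**Figure D1:**
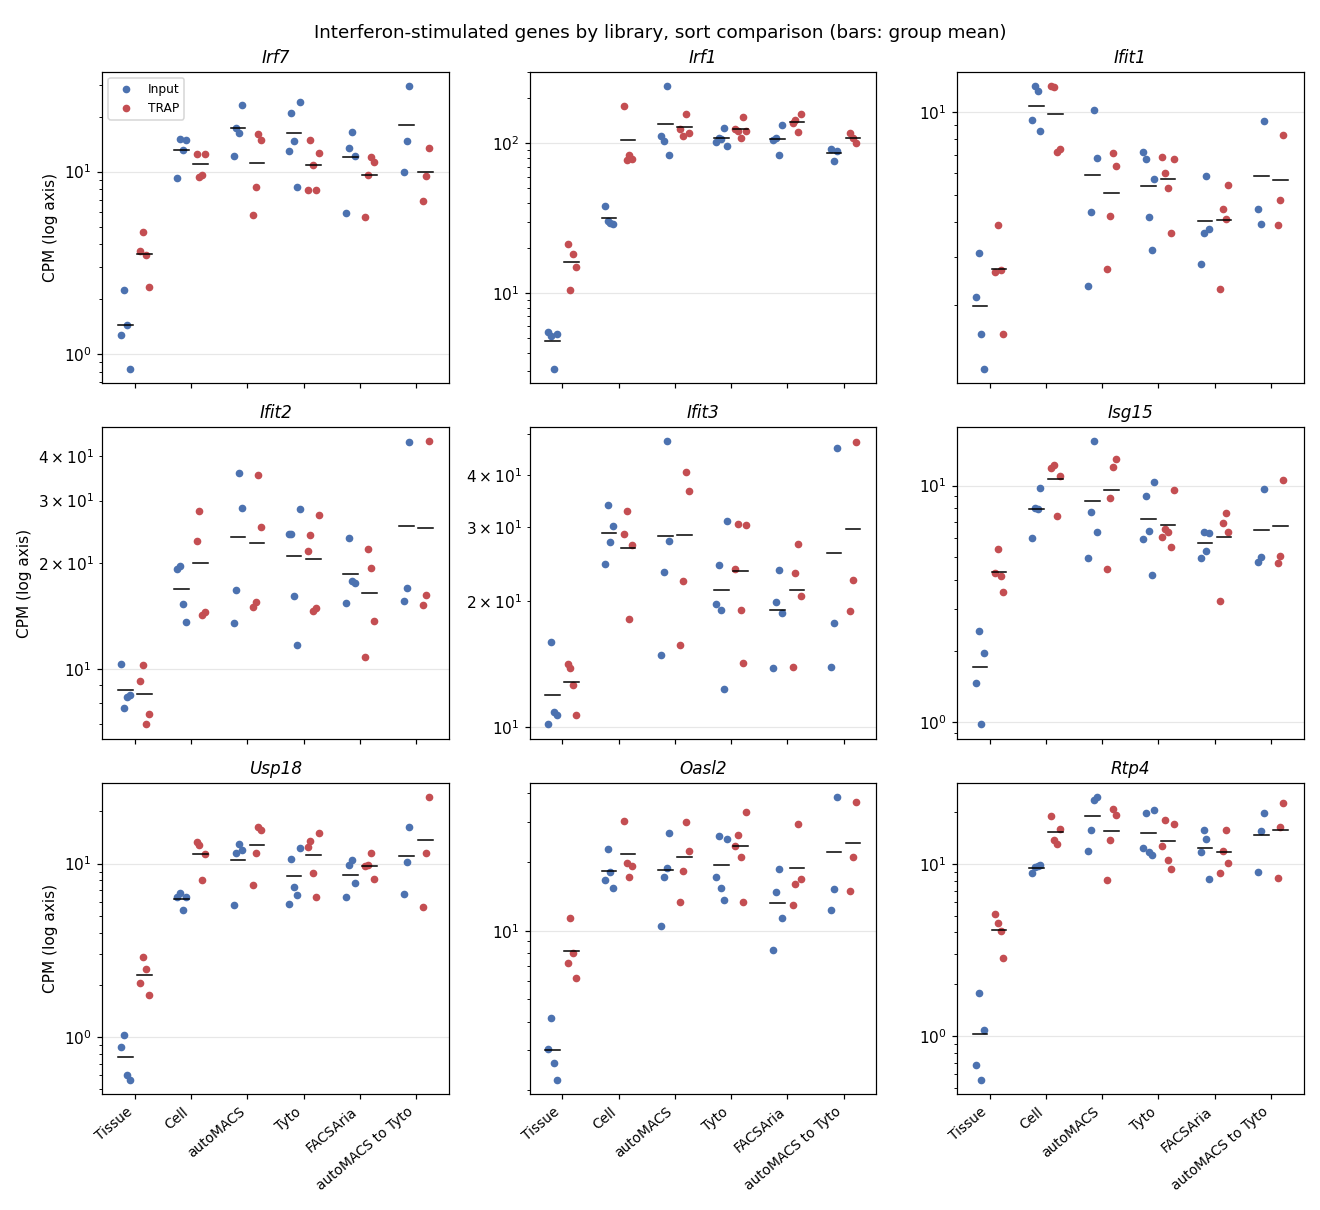
Each panel plots the level of a gene in CPM (log axis) in every library of the sort comparison, by preparation on the x axis, with Input in blue, TRAP in red, and bars at the group means. For each gene every Cell library lies above every Tissue library of its fraction, and no gene was called across the 4 sort groups.

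The TRAP fraction asked the same question of RNA pulled down with the tagged ribosomes, in which the microglial markers differed less between the preparations. All 9 genes rose again in Cell-TRAP over Tissue-TRAP, by 2.10-fold (Ifit3) to 6.52-fold (Irf1), in a contrast in which 25.1% of genes were called higher and 29.3% lower. The groups did not overlap for any of the 9, nor for 77.2% of all genes. Irf1 was at 21.3, 10.5, 18.2, and 14.9 CPM in Tissue-TRAP and at 179, 77.6, 84.2, and 78.8 CPM in Cell-TRAP of mice 946 to 949 (2.71 ± 0.23, adjusted p = 5.11e-11, edgeR). Usp18 was at 2.06, 2.88, 2.47, and 1.74 CPM and at 13.2, 12.8, 8.0, and 11.4 CPM (2.32 ± 0.36, adjusted p = 2.3e-06, edgeR). Irf7 was at 3.67, 4.66, 3.50, and 2.32 CPM and at 12.5, 9.37, 9.60, and 12.6 CPM (1.65 ± 0.31, adjusted p = 3.81e-05, edgeR). For all 3 the lowest suspension stood well above the highest homogenate.

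The other 6 genes rose in the ribosome-bound RNA too. Their log2 fold changes were 1.90 ± 0.31 for Rtp4, 1.87 ± 0.34 for Ifit1, 1.41 ± 0.32 for Oasl2, 1.31 ± 0.31 for Isg15, 1.24 ± 0.34 for Ifit2, and 1.07 ± 0.31 for Ifit3. The last 4 were close to the 2-fold limit. With DESeq2's size factors Isg15 was at 0.98, Ifit2 at 0.92, and Ifit3 at 0.74, below the limit. With DESeq2 they were at 0.98, 0.92, and 0.75. With limma on the authors' log2 values Isg15 was at 0.87, Ifit2 at 0.77, Ifit3 at 0.61, and Oasl2 at 0.98. Ifit3 was at 0.99 with the mouse as a block and at 0.96 to 1.00 without Tissue-TRAP of mouse 949 or Cell-TRAP of mouse 946 or 947. DESeq2's size factors shifted the median of all genes by -0.33 here and moved the share of calls that were higher from 46.2% to 35%.

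The median log2 fold change in TRAP was 1.65 for the 9 genes, 2.51 for the 10 microglial markers, all called higher, 2.62 for the 6 border macrophage markers, and -0.01 for all genes tested. All 6 endothelial markers (median 2.57), 1 of 2 mural markers (1.13), and 2 of 3 blood leukocyte markers (1.61) were called higher too, and all 6 neuronal (-5.19), 3 of 6 astrocyte (-1.27), and 2 of 5 oligodendrocyte markers (-0.99) lower. The summed endothelial level was 128 to 194 CPM in Tissue-TRAP and 805 to 853 CPM in Cell-TRAP. The summed microglial level was 5898 to 7579 CPM in Tissue-TRAP and 36448 to 39563 CPM in Cell-TRAP, and the summed neuronal level 4825 to 5603 CPM and 104 to 301 CPM. The part of these markers in the result was not tested. Of the 73 further interferon pathway genes 67 were called higher and none lower, with a median of 2.08, and Socs3 (6.57), the chemokine gene Cxcl10 (4.39), Tlr7 (3.81), the antiviral GTPase gene Mx1 (3.68), and Slfn8 (3.10) led them. All 9 genes of nucleic acid sensing, all 7 regulators, all 6 signaling genes, all 4 receptors, and 41 of the 47 effectors were among the 67.

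The second comparison asked whether sorting the suspension changed these genes further. In Input, where sorting removes the unlabelled cells, Irf1 rose and Ifit1 fell between Cell-Input and the mean of the 4 sorts, and the other 7 genes were not called. The background was 17.1% of genes higher and 34.7% lower. Irf1 went from 31.6 ± 4.36 CPM (SD, n = 4) in Cell-Input to 135 ± 72.2 CPM in autoMACS-Input (n = 4), 108 ± 11.8 CPM in Tyto-Input (n = 5), 107 ± 19.9 CPM in FACSAria-Input (n = 4), and 86.1 ± 8.09 CPM in autoMACS to Tyto-Input (n = 3). The wide spread of autoMACS-Input came from mouse 72, at 242 CPM, with mice 66, 67, and 73 at 112, 104, and 83.2 CPM. The log2 fold change was 1.53 ± 0.19 (adjusted p = 1.09e-07, edgeR) and lay between 1.18 and 1.63 in 27 alternative fits.

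Ifit1 went the other way. It averaged 10.5 ± 1.89 CPM in Cell-Input and 5.92 ± 3.37, 5.39 ± 1.70, 4.03 ± 1.30, and 5.88 ± 2.94 CPM in autoMACS, Tyto, FACSAria, and autoMACS to Tyto (SD). The log2 fold change was -1.26 ± 0.27 (adjusted p = 0.000142, edgeR). Among the genes not called, Ifit3 differed by -0.56 ± 0.24 (adjusted p = 0.0376, edgeR), Isg15 by -0.45 ± 0.25, Rtp4 by 0.43 ± 0.23, and Usp18 by 0.39 ± 0.23, while Irf7 (0.02 ± 0.27), Ifit2 (0.14 ± 0.24), and Oasl2 (-0.26 ± 0.25) lay nearer to 0. The median of the 9 genes was 0.02, against 2.67 for the 10 microglial markers, all called higher, and -0.09 for all genes tested. The markers of unlabelled cells dropped in the same direction as Ifit1, with all 6 endothelial (-5.46), both mural (-5.50), all 6 astrocyte (-7.49), all 5 oligodendrocyte (-8.04), and all 6 neuronal markers (-6.31) called lower, and 6 of 6 border macrophage (1.92) and 4 of 6 blood leukocyte markers (1.28) called higher and 1 lower. Their part in the change of Ifit1 was not tested. Of the 73 further interferon pathway genes 43 were called higher and 4 lower (median 1.16). The transcription factor gene Irf8 (2.72), the DNA-sensing pathway genes Mb21d1 (2.70) and Tmem173 (2.69), Slfn8 (2.53), and Irf5 (2.52) rose most. The 4 that fell were the antiviral effector genes Cmpk2 (-2.11), Isg20 (-2.06), Rsad2 (-2.05), and Ifi44 (-1.71). The libraries of several sorts came from the same mice, and the contrast treated them as independent. The sorted mice were other animals than those of the Cell libraries, so in either fraction the sorting and the mice cannot be told apart.

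In TRAP, where the tagged cells are selected by the pull-down in either case, none of the 9 genes was called between Cell-TRAP and the mean of the 4 sorts (edgeR). The background was 0.836% of genes higher and 23.6% lower. At an unadjusted p under 0.05 there were 2, Ifit1 and Isg15, and DESeq2 called 0 and limma 1. Ifit1 differed by -0.97 ± 0.24 (adjusted p = 0.00136, edgeR), just short of 2-fold, from 12.4, 12.3, 7.17, and 7.37 CPM in Cell-TRAP of mice 946 to 949 to group means of 4.08 to 5.72 CPM. It was called with limma (-1.01) and when Cell-TRAP of mouse 948 or 949, autoMACS-TRAP of mouse 72 or 73, FACSAria-TRAP of mouse 992, or autoMACS to Tyto-TRAP of mouse 73 was left out (-1.10 to -1.01). Isg15 differed by -0.59 ± 0.23 (adjusted p = 0.0333, edgeR). Here too 5 of 6 endothelial markers (median -6.33), both mural (-5.84), and all astrocyte (-7.37), oligodendrocyte (-6.20), and neuronal markers (-6.47) were called lower, and their part in these differences was not tested. The remaining 7 genes lay between -0.16 and 0.22, with Irf1 at 0.22 ± 0.16. Their 95% intervals reached from -0.60 (Rtp4) at the lowest to 0.56 (Ifit2) at the highest, so that a 2-fold change in either direction lay outside them. Ifi44 (-1.81), Cmpk2 (-1.39), Rsad2 (-1.13), and Ifitm2 (-1.05) were called lower among the 73 further genes and none was called higher (median 0.13).

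Between the sorted cells and Tissue-TRAP, 6 of the 9 genes were called higher, in a contrast with 25.9% of genes higher and 36.9% lower. These were Irf1 (2.93 ± 0.21), Usp18 (2.34 ± 0.32), Rtp4 (1.74 ± 0.27), Irf7 (1.54 ± 0.27), Oasl2 (1.40 ± 0.27), and Ifit2 (1.29 ± 0.29). Ifit3 (0.98 ± 0.26), Ifit1 (0.90 ± 0.28), and Isg15 (0.72 ± 0.26) had adjusted p of 0.00096, 0.00464, and 0.012 (edgeR) but stayed under 2-fold. Ifit1 passed it (1.14) without Tissue-TRAP of mouse 947, and Ifit3 (1.00 to 1.04) without Tissue-TRAP of mouse 946 or 947, autoMACS-TRAP or autoMACS to Tyto-TRAP of mouse 66 or 67, Tyto-TRAP of mouse 823 or 945, or FACSAria-TRAP of mouse 69. Ifit2 was not called with DESeq2's size factors (0.95), with DESeq2 (0.95), or with limma (0.76), nor Oasl2 with limma (0.91). All 10 microglial markers (median 2.77) and 4 of 6 border macrophage markers (1.91) were higher in this contrast, and 5 of 6 endothelial (-3.89) and all 6 neuronal markers lower, and their part was not tested. This contrast and the preceding ones share the Tissue-TRAP and sorted libraries. The mice that were sorted were other animals than those of the tissue libraries.

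The third question was whether the sort methods differed from one another. None of the 9 genes was called in an F test across the 4 sorts in Input, where 7.42% of genes were called, or in TRAP, where 4.17% were called (edgeR). For 9 genes a count of 0 is near these shares. None had an unadjusted p under 0.05 in either fraction, and DESeq2 and limma called 0. The largest difference between any pair of sort groups was 0.40 (Usp18) to 0.74 (Oasl2) in Input on the log2 scale, with adjusted p of 0.332 to 0.708 (edgeR), and 0.24 (Irf7) to 0.67 (Isg15) in TRAP, with adjusted p of 0.299 to 0.893 (edgeR). None of the 10 microglial markers was called across the sorts in either fraction, whereas 5 of 6 blood leukocyte, 5 of 6 endothelial, all 5 oligodendrocyte, and 4 of 6 astrocyte markers were called in Input. The F tests treated libraries as independent, although autoMACS and autoMACS to Tyto shared mice 66, 67, and 73 and Tyto and FACSAria shared mice 69, 945, and 991. No fit with the mouse as a block was made across all 4 sorts, because the former 2 methods share no mouse with the latter 2. Of the 73 further genes, Ifitm2 (1.30) was called in Input and none in TRAP.

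The order of the mice within a sort group was shared by most of the 9 genes. In autoMACS mouse 66 was the lowest for 8 of the 9 genes in Input and for 8 in TRAP, and in autoMACS to Tyto, which drew on the same mice, it was the lowest for 7 and for 8. Mouse 73 was the highest for 8 of 9 in both fractions of autoMACS to Tyto. Ifit3 was at 14.9 and 13.9 CPM in mouse 66 and at 27.8 and 46.4 CPM in mouse 73, in the Input of the 2 methods. In FACSAria mouse 69 was the lowest for 7 genes in each fraction. In Tyto, which shared mouse 69 with FACSAria, mouse 945 was the lowest for 7 genes in Input and 6 in TRAP, so the lowest mouse differed between those methods. Irf1 departed from the other genes, and Tyto-Input of mouse 945 was the highest of its group for Irf1 (128 CPM) and the lowest for Irf7 (8.25 CPM). These orders are descriptions without a test.

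The pull-down was then compared with its own Input. In Tissue of the sort comparison, 6 of the 9 genes were higher in TRAP, against 9.23% of genes called higher and 1.87% lower. They were Rtp4 (2.00 ± 0.37, adjusted p = 2.76e-05, edgeR), Irf1 (1.76 ± 0.27), Usp18 (1.57 ± 0.40), Oasl2 (1.44 ± 0.36), Isg15 (1.33 ± 0.35), and Irf7 (1.29 ± 0.40), and the libraries of the fractions did not overlap for any of these, nor for 39.3% of all genes. The 3 Ifit genes were not called, with Ifit1 at 0.43 ± 0.38, Ifit3 at 0.10 ± 0.34, and Ifit2 at -0.04 ± 0.35. Ifit2 was at 7.74 to 10.3 CPM in Tissue-Input and at 6.96 to 10.2 CPM in Tissue-TRAP. The 10 microglial markers were all higher in TRAP, with a median of 4.54, against 1.33 for the 9 genes. All 6 border macrophage markers (4.28) and 5 of 6 endothelial markers (1.41) were higher as well. The summed neuronal level was 5036 to 5328 CPM in Tissue-Input and 4825 to 5603 CPM in Tissue-TRAP. The summed astrocyte level was 2930 to 3157 CPM and 3290 to 5123 CPM, and the oligodendrocyte level 2623 to 3151 CPM and 593 to 831 CPM. Tissue-TRAP thus still held RNA of other cells, and the part of any of these markers was not tested.

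In Tissue of the preparation comparison, which came from the same mice and is no independent repeat, 4 of the 9 were called. Rtp4 (2.25 ± 0.34), Irf1 (2.07 ± 0.20), Isg15 (1.36 ± 0.40), and Oasl2 (1.23 ± 0.34) were higher in TRAP, where 8.21% of genes were called higher and 2.31% lower. Usp18 differed by 1.22 ± 0.63 (adjusted p = 0.187, edgeR) and was called with the mouse as a block (1.24, adjusted p = 0.0491, edgeR). The Ifit genes lay between -0.04 (Ifit3) and 0.41 (Ifit1), and Irf7 was at 0.68 ± 0.43.

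In the unsorted suspension 1 of the 9 genes was called. Irf1 was higher in Cell-TRAP (77.6 to 179 CPM) than in Cell-Input (28.8 to 38.1 CPM) by 1.73 ± 0.24 (adjusted p = 1.86e-08, edgeR, and 1.14 with limma). The libraries of the fractions did not overlap for 3 of the 9 genes, Irf1, Usp18, and Rtp4. The share over all genes was not computed, so this count cannot be weighed and is a description only. The background was 16.8% of genes higher and 30.9% lower, and the share of calls that were higher fell from 35.2% to 21% with DESeq2's size factors, which moved the median of all genes by -0.41. Usp18 (0.86 ± 0.31) and Rtp4 (0.70 ± 0.30) had adjusted p of 0.0123 and 0.0329 (edgeR) and stayed under 2-fold, and the other 6 lay between -0.26 (Irf7) and 0.42 (Isg15). The 10 microglial markers had a median of 2.80. Among the further genes 51 of 73 were called higher, led by Tmem173 (2.92) and Irf8 (2.88), and Isg20 (-2.20) and Rsad2 (-1.25) were called lower. In the sorted cells none of the 9 was called between the fractions by edgeR, DESeq2, or limma, in a contrast with 0.0758% of genes higher and 18.8% lower. Irf7, with a difference of -0.59 ± 0.17 (adjusted p = 0.00301, edgeR), was the 1 gene at an unadjusted p under 0.05. With the mouse as a block Irf7 was at -0.51 (adjusted p = 0.000178, edgeR), and Irf1 (0.32, adjusted p = 1.3e-05), Oasl2 (0.37, adjusted p = 0.00146), Usp18 (0.35, adjusted p = 0.00464), and Ifit3 (0.23, adjusted p = 0.0369) passed the limit on adjusted p too (edgeR), with all 5 under 2-fold and none called. The microglial markers had a median of 0.24 there.

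Whether the pull-down saw the step from tissue to suspension as Input did was tested with an interaction term. The rise was smaller in TRAP than in Input for 3 genes, Irf7 (-1.55 ± 0.51, adjusted p = 0.0101, edgeR), Rtp4 (-1.31 ± 0.48, adjusted p = 0.0182, edgeR), and Oasl2 (-1.20 ± 0.48, adjusted p = 0.0329, edgeR). The background was 5.74% of genes higher and 29.5% lower, so that the number called is near the background. All 10 microglial markers were lower with a median of -1.70, and all genes had a median of -0.29. Isg15 (-0.91 ± 0.47), Usp18 (-0.70 ± 0.50), Ifit1 (-0.54 ± 0.52), Ifit3 (-0.23 ± 0.47), Irf1 (-0.03 ± 0.34), and Ifit2 (0.28 ± 0.48) were not called. With DESeq2's size factors, DESeq2, or limma, Isg15 (-1.36 to -1.24) and Usp18 (-1.11 to -1.03) were called too, making 5, and Isg15 was also called without mouse 946, 947, or 949 (-1.28 to -1.17). Under DESeq2's size factors the share of calls that were higher was 5.23% rather than 16.3%. All endothelial (-2.16), mural (-1.99), astrocyte (-2.35), oligodendrocyte (-3.15), and neuronal markers (-2.04) were called lower in this term as well, and the part of any of these markers in the values was not tested.

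Levels between genes were compared per kilobase of exon. In Tissue-Input of the sort comparison Ifit3 was the highest (6.83 ± 1.57 CPM per kb, SD, n = 4), followed by Isg15 (2.26 ± 0.828) and Ifit2 (2.22 ± 0.287), which did not differ beyond their spread. Irf1 (1.20 ± 0.281), Ifit1 (0.751 ± 0.311), Rtp4 (0.481 ± 0.257), Oasl2 (0.472 ± 0.13), Irf7 (0.382 ± 0.156), and Usp18 (0.275 ± 0.0793) came after them. Irf1 lay below Ifit2 by more than their spread, and from Irf1 down no gene differed from its neighbor in the order beyond their spread. In Cell-TRAP Irf1 had the highest mean (26.4 ± 12.5 CPM per kb). It did not differ beyond the spread from Ifit3 (15.3 ± 3.55) or Isg15 (14.1 ± 2.88), which overlapped each other. The spread of Irf1 came from mouse 946, at 179 CPM against 77.6 to 84.2 CPM. Irf7 had the lowest mean (2.92 ± 0.466). Oasl2 (3.40 ± 0.928), Ifit1 (3.70 ± 1.11), Usp18 (4.08 ± 0.853), and Ifit2 (5.08 ± 1.72) lay within the spread of Irf7. Across the 12 group means of the sort comparison, the genes outside the set whose log2(CPM + 1) was most like the mean of the 9 were Gatsl3 (Pearson r = 0.988), the guanylate-binding protein gene Gbp3 (0.985), Pak4 (0.983), Gbp2 (0.983), and Nampt (0.980), among 15825 genes. The groups share mice and scaling, and these correlations are descriptions. Of the 9 themselves, Ifit1 was least like their mean (0.804).

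**Figure D2:**
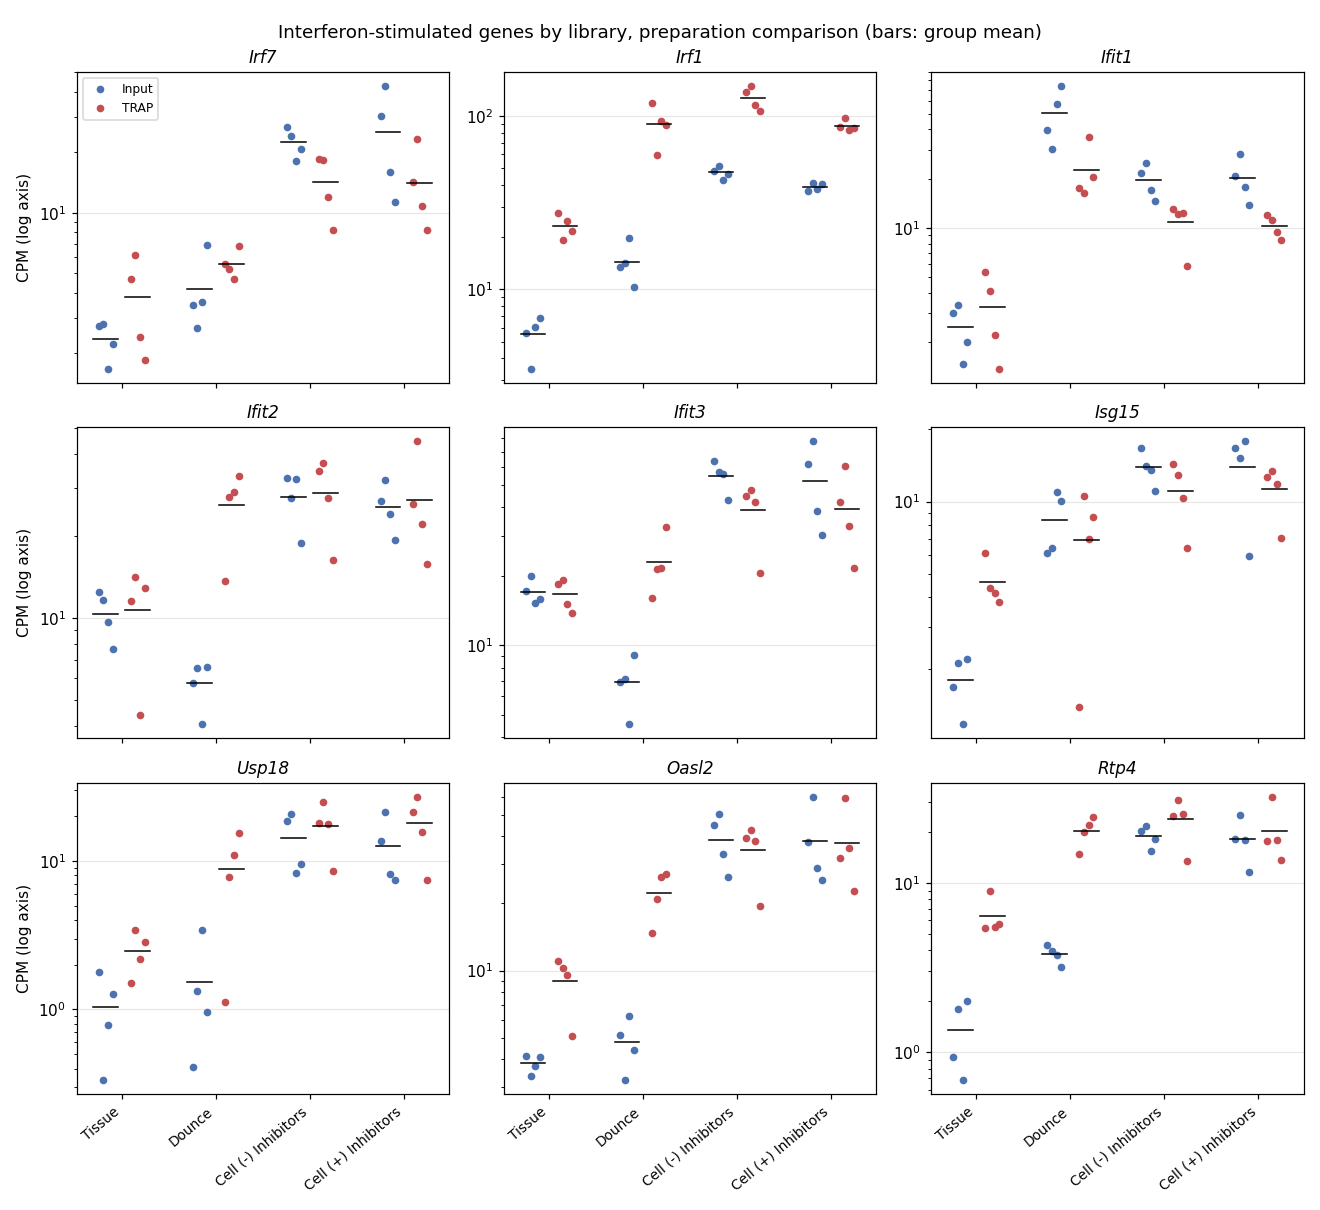
Each panel plots the level of a gene in CPM (log axis) in every library of the preparation comparison, by preparation on the x axis, with Input in blue, TRAP in red, and bars at the group means. Ifit1 has its highest group mean in Dounce-Input (30.2 to 73.9 CPM), while Ifit2 and Ifit3 have their lowest group means there.

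The preparation comparison asked whether the rise from tissue to suspension was prevented by inhibitors or by a cold mechanical preparation. Without inhibitors all 9 genes rose in Cell (-) Inhibitors-Input over Tissue-Input, where 25.6% of genes were called higher and 19.1% lower. The groups did not overlap for any of the 9, nor for 69.0% of all genes. The log2 fold changes were 3.67 ± 0.30 for Rtp4, 3.60 ± 0.53 for Usp18, 3.19 ± 0.28 for Oasl2, 3.11 ± 0.38 for Irf7, 2.95 ± 0.19 for Irf1, 2.85 ± 0.33 for Ifit1, 2.80 ± 0.33 for Isg15, 1.54 ± 0.24 for Ifit3, and 1.29 ± 0.21 for Ifit2. The median was 2.95, against 4.44 for the 10 microglial markers, 4.4 for the 7 blood leukocyte markers, and 0.05 for all genes. All 6 endothelial (4.62), all 6 border macrophage (3.42), both mural (2.63), all 5 oligodendrocyte (1.86), and 3 of 6 astrocyte markers (1.29) were called higher too, and all 6 neuronal markers lower (-3.87). The part of these markers in the result was not tested. These suspensions came from other mice than the suspensions of the sort comparison. They also came from other mice than the Tissue libraries, so in either fraction the preparation and the mice cannot be told apart. In TRAP the 9 genes rose by 1.27 (Ifit3) to 2.84 (Usp18) over Tissue-TRAP without inhibitors (background 22.3% higher and 30.8% lower), and by 1.30 (Ifit3) to 2.90 (Usp18) with them (background 21.6% higher and 31.2% lower). All 9 were called in each contrast. The groups did not overlap for any of the 9, nor for 74.7% of all genes without inhibitors and 75.8% with them. The 10 microglial markers had medians of 2.32 and 2.41 in these contrasts and the 6 endothelial markers 2.46 and 2.60, all called higher, and their part was not tested.

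The inhibitors themselves changed none of the 9 genes past the thresholds. Few of all genes passed them in either fraction, so that a count of 0 is near the background. In Input, with 0% of genes called higher and 0.311% lower, 0 of the 9 were called by edgeR, DESeq2, or limma, and none had an unadjusted p under 0.05. In either fraction the p values and intervals come from fits without the mouse, unless a block is named, although the suspensions shared mice. With the mouse as a block 0 of the 9 were called in Input as well. Ifit1 was at 21.7, 24.8, 17.1, and 14.7 CPM in Cell (-) Inhibitors-Input of mice 1361, 1362, 156, and 157 and at 20.8, 28.2, 17.6, and 13.8 CPM in Cell (+) Inhibitors-Input of the same mice. Rtp4 was at 20.3, 21.7, 15.5, and 18.3 CPM and at 18.2, 25.2, 17.8, and 11.6 CPM. Mouse 1362 was the highest on either side for both of these genes. With inhibitors it was the highest for 8 of the 9 genes in each fraction and mouse 157 the lowest for 8. The 95% interval of the difference was -0.49 to 0.56 (log2) for Ifit1, -0.53 to 0.41 for Rtp4, and -0.46 to 0.79 for Irf7. It was widest for Usp18, at -1.02 to 0.66.

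In TRAP, with 0.00679% of genes called higher and 0.632% lower, 0 of the 9 were called by edgeR, DESeq2, or limma, and Irf1 alone had an unadjusted p under 0.05. Irf1 was at 138, 148, 116, and 107 CPM in Cell (-) Inhibitors-TRAP of mice 1361, 1362, 156, and 157 and at 86.5, 96.9, 82.3, and 85.3 CPM in Cell (+) Inhibitors-TRAP. Every mouse was lower with inhibitors and the groups did not overlap, as for 12.5% of all genes. The difference was -0.53 ± 0.16 (adjusted p = 0.167, edgeR, 95% interval -0.85 to -0.21), and with the mouse as a block it was -0.50 (adjusted p = 0.000327, edgeR), under 2-fold in both. Irf1 did not overlap in Input either, at 42.9 to 51.3 CPM without and 36.7 to 41.2 CPM with inhibitors (-0.28 ± 0.16), as was true of 2.24% of all genes. The 95% intervals of the other 8 genes in TRAP reached from -0.84 (Usp18) to 0.95 (Usp18). No interaction between fraction and inhibitors was called by edgeR, DESeq2, or limma, which is near the background of 0% of genes higher and 0.145% lower. In this term none of the 9 had an unadjusted p under 0.05, and their values lay between -0.26 (Irf1) and 0.22 (Usp18).

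Socs3 was the 1 gene of the 73 further interferon pathway genes that was called between the suspensions, in either fraction. It was at 570, 728, 416, and 482 CPM in Cell (-) Inhibitors-TRAP and at 29.4, 34.8, 29.1, and 26.9 CPM in Cell (+) Inhibitors-TRAP, a log2 fold change of -4.18 (adjusted p = 1.13e-11, edgeR), and it fell by 3.70 in Input. Socs3 is induced by interferons and by other cytokines through STAT3. The medians of the 73 genes were 0.06 in Input and -0.07 in TRAP, and those of the 10 microglial markers 0.14 and 0.06.

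**Figure D3:**
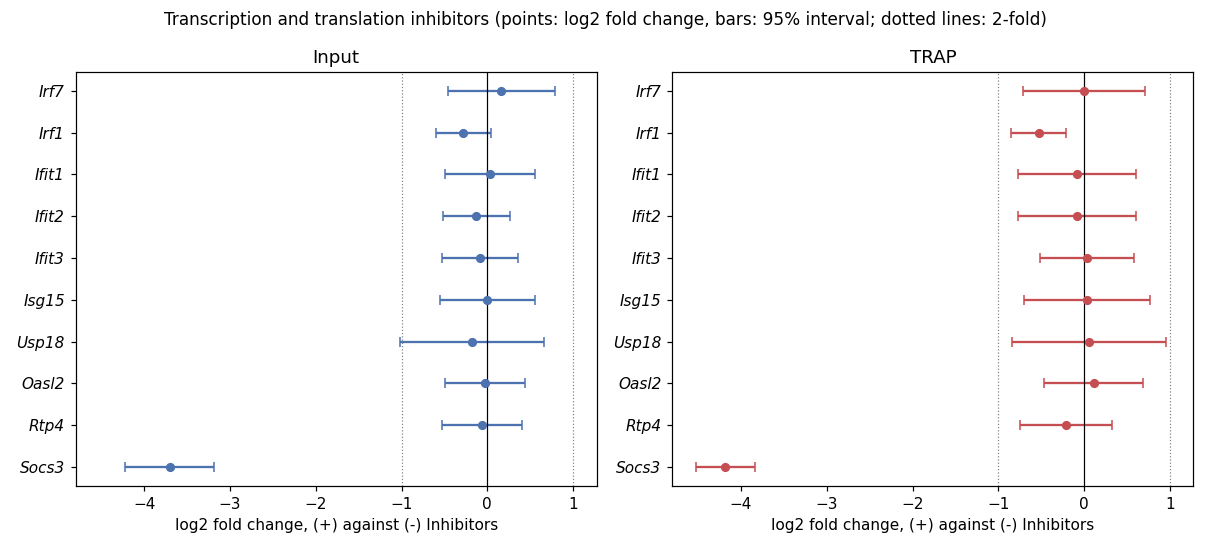
Points show the log2 fold change of Cell (+) Inhibitors against Cell (-) Inhibitors for the 9 genes and Socs3 (y axis) in Input (left) and TRAP (right), bars the 95% interval, and dotted lines the 2-fold limits. The 9 genes lie between -0.53 and 0.16, and Socs3 lies at -3.70 and -4.18.

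In Input of the Dounce preparation the 9 genes did not move in a common direction. In Dounce-Input over Tissue-Input, 4 of the 9 genes were called higher and 1 lower, where 28.7% of genes were called higher and 21.4% lower, so that the number called is near the background. Ifit1 rose most, from 2.99, 3.36, 1.47, and 2.00 CPM in Tissue-Input of mice 946 to 949 to 39.7, 30.2, 57.3, and 73.9 CPM in Dounce-Input of mice 179 to 182 (4.55 ± 0.33, 23.5-fold, adjusted p = 2.53e-10, edgeR). Its neighbors did not follow. Ifit3 fell, from 17.2, 20.2, 15.4, and 16 CPM to 6.93, 7.13, 4.53, and 9.09 CPM (-1.09 ± 0.26, adjusted p = 0.000962, edgeR). Ifit2 was at 12.4, 11.7, 9.71, and 7.67 CPM and at 5.78, 6.55, 4.06, and 6.61 CPM (-0.63 ± 0.23, adjusted p = 0.0178, edgeR, not called). The groups did not overlap for any of the 3 Ifit genes, nor for 70.3% of all genes, and the lower level of Ifit3 was -0.96, short of 2-fold, without Dounce-Input of mouse 181. Dounce and Tissue libraries came from different mice, and the method, the mice, and the amount of brain used cannot be told apart. The sequencing index numbers of the Dounce libraries form a series of their own, which repeats numbers of other libraries in this comparison. Whether the Dounce libraries were made or sequenced apart was not examined, and such a difference cannot be told apart from the method either. By the study's own quality measures the RNA of Dounce-Input was the least intact. RNA integrity is not part of the count tables, and its part in these differences was not tested.

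Among the other genes, Isg15 rose from 1.68, 2.13, 1.18, and 2.21 CPM to 6.11, 6.38, 10.9, and 10.1 CPM (2.40 ± 0.34, adjusted p = 2.99e-06, edgeR). Rtp4 rose from 0.687 to 2.00 CPM up to 3.17 to 4.29 CPM (1.72 ± 0.32), and Irf1 from 3.48 to 6.83 CPM up to 10.3 to 19.8 CPM (1.58 ± 0.19). Irf7 was at 1.67 to 2.80 CPM and at 2.65 to 6.89 CPM (0.99 ± 0.41, adjusted p = 0.0371, edgeR), and was called in 5 of the 8 fits that left out a library (1.04 to 1.16), those without Dounce-Input of mouse 179, 180, or 181 or Tissue-Input of mouse 946 or 947. Usp18 (0.62 ± 0.63) and Oasl2 (0.49 ± 0.31) were not called. Usp18 was at 0.413, 1.33, 3.44, and 0.965 CPM in the 4 Dounce-Input libraries, and its interval (-0.61 to 1.84) was the widest.

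Blood leukocyte markers moved with this contrast. All 7 were called higher in Dounce-Input, with a median log2 fold change of 6.36, against 2.81 for the 10 microglial markers and 0.99 for the 9 genes. Their summed level was 391, 168, 1078, and 230 CPM in Dounce-Input of mice 179, 180, 181, and 182 and 1.86 to 3.70 CPM in Tissue-Input, and none of the 7 was at 0 in every library of Dounce-Input. S100a8, S100a9, and Ngp, which mark neutrophils, made up most of it, with means of 119, 217, and 109 CPM. Mouse 180 was the lowest of the 4 for both Ifit1 and the leukocyte sum, while mouse 182 was the highest for Ifit1 and mouse 181 for the leukocyte sum. All 6 border macrophage markers (median 2.10) and 3 of 5 oligodendrocyte markers (1.10) were higher too, and 3 of 6 endothelial (-1.26) and 4 of 6 neuronal markers (-1.20) lower. The part of leukocyte RNA, or of RNA from these other cells, in the level of Ifit1 was not tested. Of the 73 further interferon pathway genes 49 were called higher and 1 lower (median 1.64). Isg20 (5.85), Rsad2 (5.81), and Ifi204 (5.09) rose most, before Slfn8 (3.93) and Trim30a (3.83), and Cmpk2 fell (-1.68).

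**Figure D4:**
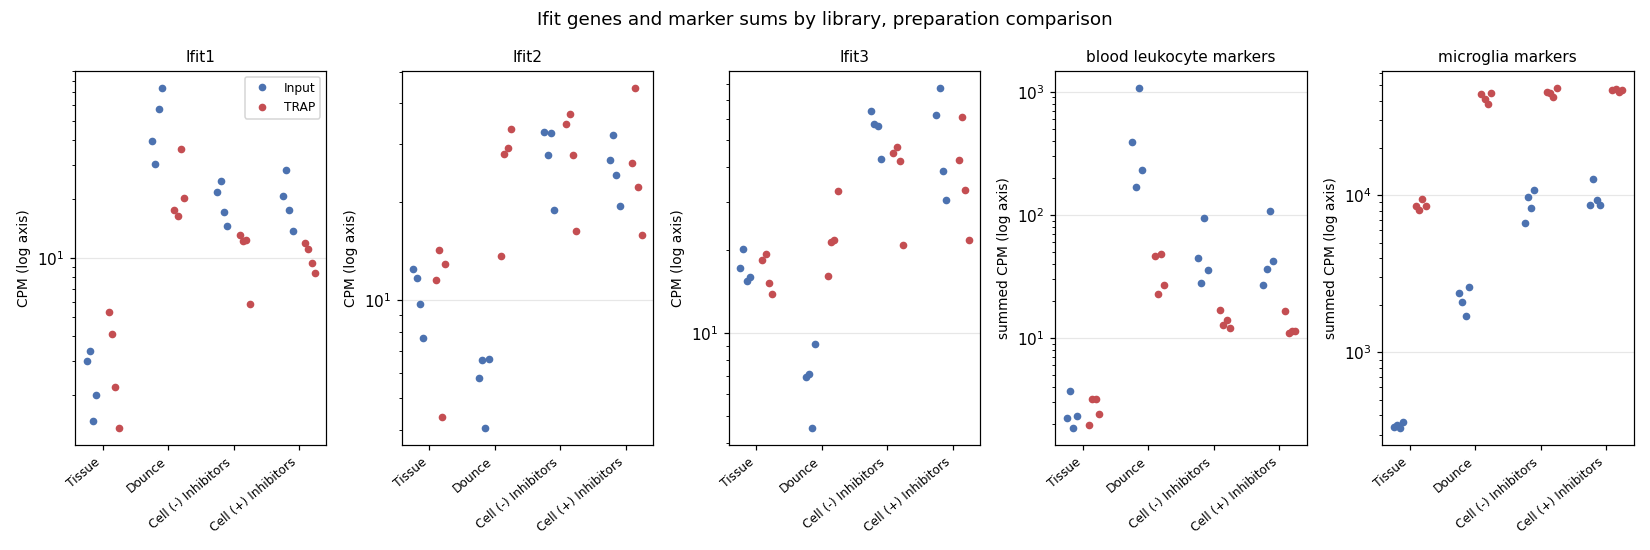
The first 3 panels plot Ifit1, Ifit2, and Ifit3 in CPM and the last 2 the summed CPM of the blood leukocyte and microglial markers (all log axes), per library of the preparation comparison, Input in blue and TRAP in red. In Dounce-Input Ifit1 and the leukocyte sum (168 to 1078 CPM) have their highest group means, and Ifit2 and Ifit3 their lowest.

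The pull-down brought the Ifit genes of the Dounce preparation closer together. Within Dounce, Ifit1 was lower in TRAP (17.6, 16.4, 36.1, and 20.4 CPM) than in Input (-1.17 ± 0.32, adjusted p = 0.00202, edgeR), and was -0.88, not called, without mouse 182. Ifit2 was higher, at 13.7, 28.0, 29.1, and 33.3 CPM (2.16 ± 0.34, adjusted p = 1.98e-06, edgeR), as was Ifit3, at 16.2, 21.5, 21.7, and 32.7 CPM (1.72 ± 0.32, adjusted p = 2.1e-05, edgeR). The libraries of the fractions did not overlap for 5 of the 9 genes, Ifit2 and Ifit3 among them. The share over all genes was not computed, so this count cannot be weighed and is a description only. Irf1 (2.64 ± 0.18), Usp18 (2.61 ± 0.61), Rtp4 (2.40 ± 0.31), and Oasl2 (2.24 ± 0.34) were higher in TRAP too, and Isg15 (-0.25 ± 0.38) and Irf7 (0.46 ± 0.45) were not called. In total 6 were higher and 1 lower, where 20.8% of genes were called higher and 26.7% lower. With the mouse as a block and only the Dounce libraries, Usp18 did not pass the filter on low counts and 6 of the 9 were called. The leukocyte sum dropped to 22.9 to 48.5 CPM in Dounce-TRAP, and the median change of the microglial markers was 4.30. The corresponding contrast in Cell (-) Inhibitors (10.6% higher, 36.7% lower) called Irf1 alone (1.43 ± 0.17), and so did that in Cell (+) Inhibitors (9.71% higher, 35.8% lower), with Irf1 at 1.17 ± 0.17. In the latter, Ifit1 was at -0.97 ± 0.32 and was called lower without mouse 1361 (-1.04) or mouse 157 (-1.03).

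In TRAP, 6 of the 9 genes were higher in Dounce than in Tissue, where 23.2% of genes were called higher and 27.1% lower. They were Ifit1 (2.83 ± 0.39, adjusted p = 3.5e-06, edgeR), Irf1 (2.00 ± 0.18), Usp18 (1.86 ± 0.55), Rtp4 (1.73 ± 0.31), Oasl2 (1.36 ± 0.33), and Ifit2 (1.33 ± 0.38). Isg15 (0.65 ± 0.42), Irf7 (0.62 ± 0.42), and Ifit3 (0.52 ± 0.31) were not called. The groups did not overlap for 4 of the 9, while they did not overlap for 59.5% of all genes. Dounce-TRAP of mouse 179 was the lowest of its group for 6 genes, among them Isg15 (1.39 CPM against 6.99 to 10.5) and Usp18 (1.11 CPM against 7.79 to 15.4). That library held 3597293 counts, so both of these low levels rest on a handful of counts. The 10 microglial markers had a median of 2.28 in this contrast, close to the 2.32 of Cell (-) Inhibitors-TRAP over the same Tissue-TRAP libraries. Of the other markers, 4 of 6 border macrophage (median 1.70) and 3 of 5 oligodendrocyte markers (1.04) were called higher, and 5 of 6 endothelial (-2.85) and all 6 neuronal markers (-2.29) lower, and their part was not tested.

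The cold and the warm preparation were also compared directly in TRAP. The Dounce and Cell libraries came from different mice and from separate series of sequencing index numbers. The method, the mice, and any difference between these series cannot be told apart. Irf7 was lower in Dounce-TRAP, at 5.57, 5.26, 4.66, and 6.79 CPM, than in Cell (-) Inhibitors-TRAP, at 18.5, 18.3, 12.0, and 8.24 CPM (-1.34 ± 0.41, adjusted p = 0.00984, edgeR). Ifit1 was higher in Dounce-TRAP, with 13.1, 12.2, 12.4, and 5.82 CPM in Cell (-) Inhibitors-TRAP (1.05 ± 0.36, adjusted p = 0.0193, edgeR). The groups did not overlap for either, nor for 41.7% of all genes. The background was 20.7% of genes higher and 8.02% lower. The call of Ifit1 was lost without Dounce-TRAP of mouse 181 (0.74), without Cell (-) Inhibitors-TRAP of mouse 157 (0.84), and with limma (0.97). Usp18 (-0.98 ± 0.50, adjusted p = 0.109, edgeR) lay at the limit and was called in 6 alternatives (down to -1.48 with limma), among them the fits without Dounce-TRAP of mouse 182 and without Cell (-) Inhibitors-TRAP of mouse 157. Isg15 was called with limma (-1.03). In the reported fit, Ifit3 (-0.75 ± 0.30), Isg15 (-0.66 ± 0.40), Oasl2 (-0.64 ± 0.31), Irf1 (-0.50 ± 0.17), Rtp4 (-0.21 ± 0.29), and Ifit2 (-0.15 ± 0.36) were not called. Of the 73 further genes 13 were lower and none higher, with a median of -0.43 and the largest changes in Socs3 (-5.04), Cxcl10 (-2.20), Ifitm3 (-1.40), Ifi35 (-1.29), and Ifitm2 (-1.21). The microglial markers had a median of -0.05, all 6 endothelial markers were lower (-5.16), and all 6 neuronal markers were higher (3.70), and their part in the result was not tested.

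**Figure D5:**
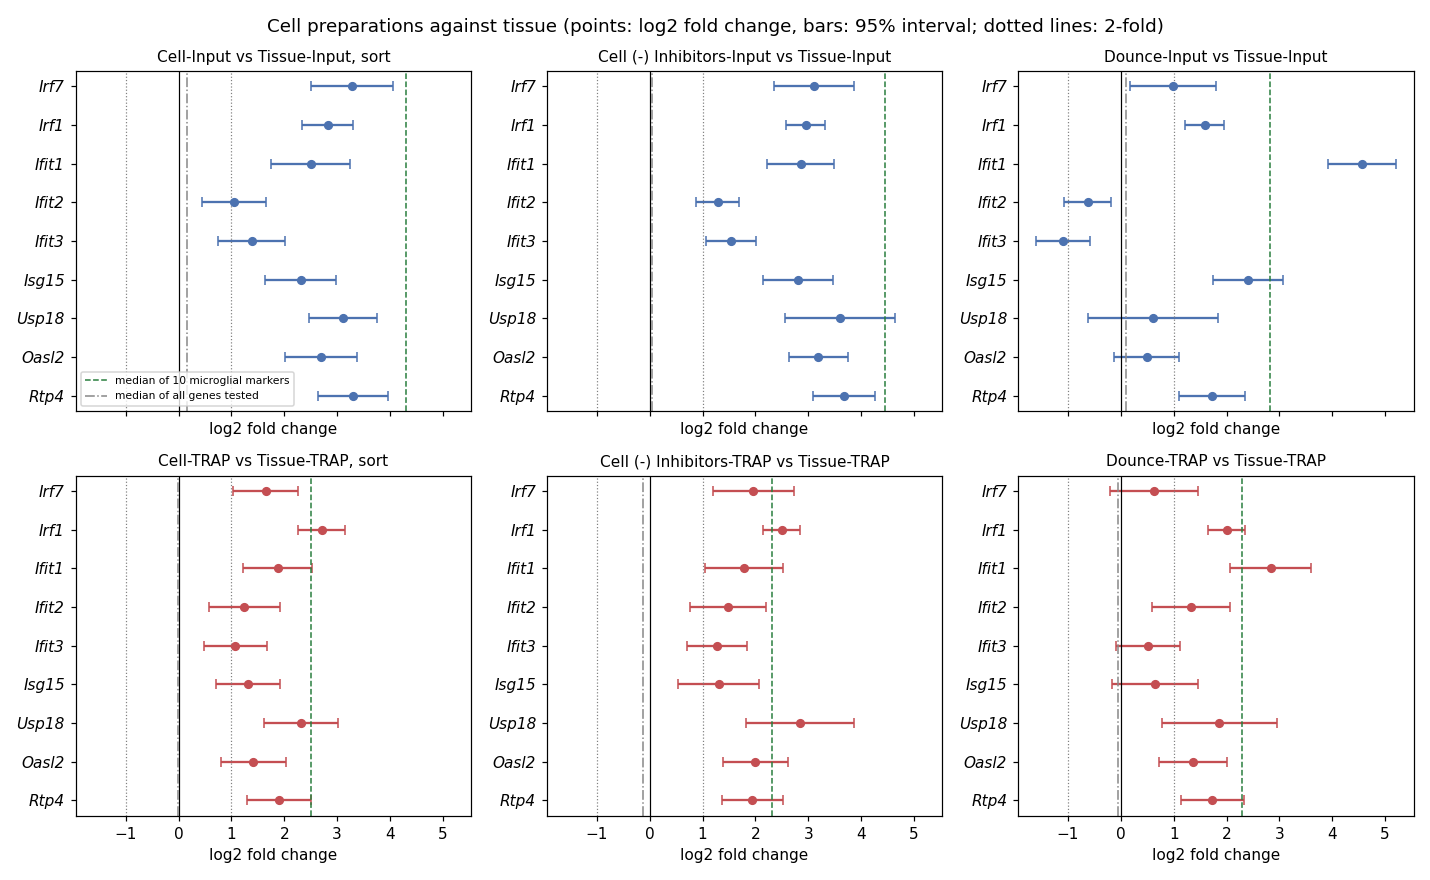
Points show the log2 fold change of the 9 genes (y axis) over tissue in Input (upper row) and TRAP (lower row) for Cell of the sort comparison, Cell (-) Inhibitors, and Dounce, bars the 95% interval, dotted lines the 2-fold limits, and dashed and dash-dotted lines the medians of the microglial markers and of all genes. In Cell preparations the 9 genes lie to the right of 1, and in Dounce-Input they spread from -1.09 (Ifit3) to 4.55 (Ifit1).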

How the data were processed

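Stranded poly(A) RNA-Seq libraries were sequenced. The authors trimmed and aligned the reads to mm10 in Strand NGS with the strand taken into account, removed duplicates, and quantified genes. The deposited expected count values (33.2% and 20.8% whole in the 2 tables) were rounded, and the deposited log2 values, which the authors normalized with DESeq2 and baselined, served as an alternative. Another deposited table of expected counts, without Dounce, was a further alternative. Date-like strings stood in place of 23 symbols per table, none of them a member.

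Groups were taken from the sample labels. Genes with more than 5 counts in every library of at least 1 group were fitted with edgeR 4.0.16 (R 4.3.3, TMM, quasi-likelihood, group only, Benjamini-Hochberg over all genes tested), with limma 3.58.1 and DESeq2 1.42.0 as alternatives. A call needed an adjusted p under 0.1 and a fold above 2, for an F test the largest difference between groups. SE is the log2 fold change over the square root of F, and the 95% intervals are normal. Depth was 2471448 to 20168116 counts per library, and intervals reflect the spread between libraries. The scripts were tested on simulated counts. The same mouse number marks the same animal in the study, so numbers pair libraries: deviations of the same mouse correlated at 0.326 to 0.412 between Cell-Input and Cell-TRAP (other mice -0.162) and at -0.0261 to 0.0469 between Tissue-Input and Cell-Input. All 9 members were named, with up to 5 called genes per direction from a list of 78 interferon pathway genes (73 in the tables) and 5 genes of like pattern. The members and lists were chosen with earlier results of these data known.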

Additional observations from a re-analysis of the deposited data

Results flagged for a closer look

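Each of the 9 genes was examined in every group of 4 or 5 libraries for a library set apart from the rest, 162 gene and group pairs in all, of which 6 had one. Chance sets apart a library in about 1 of 20 such groups. Irf1 was at 3.11 CPM in Tissue-Input of mouse 948 in the sort comparison, below the 5.18 to 5.47 CPM of the other 3. Irf1 was at 179 CPM in Cell-TRAP of mouse 946, above the 77.6 to 84.2 CPM of the others. Ifit3 was at 16 CPM in Tissue-Input of mouse 947 in the sort comparison, above 10.1 to 10.8 CPM. Isg15 was at 9.60 CPM in Tyto-TRAP of mouse 991, above 5.47 to 6.57 CPM. Ifit1 was at 5.82 CPM in Cell (-) Inhibitors-TRAP of mouse 157, below 12.2 to 13.1 CPM. Rtp4 was at 8.93 CPM in Tissue-TRAP of mouse 947 in the preparation comparison, above 5.43 to 5.75 CPM.

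In the sort comparison the step from Tissue to Cell differed between the fractions by the interaction term of edgeR for Irf7 (-1.55), Rtp4 (-1.31), and Oasl2 (-1.20), with the smaller rise in TRAP. This term was called lower for 29.5% of all genes tested, so that the number called is near the background.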

How the results depend on the processing

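Counts of the 9 genes called stayed within 1.5 times of the reported count in 21 of 24 contrasts under every alternative other than leaving out a library, and in 21 of 24 when each library or mouse was left out. With limma on the authors' log2 values, 5 rather than 9 were called in Cell-TRAP against Tissue-TRAP and 1 rather than 0 in the sorts against Cell-TRAP. In the interaction of fraction with Cell against Tissue, 5 rather than 3 were called with DESeq2's size factors, with DESeq2, and with limma. Leaving out libraries gave 0 to 1 called in the sorts against Cell-TRAP (1 without Cell-TRAP of mouse 948 or 949, autoMACS-TRAP of mouse 72 or 73, FACSAria-TRAP of mouse 992, or autoMACS to Tyto-TRAP of mouse 73). It gave 1 to 3 in Dounce-TRAP against Cell (-) Inhibitors-TRAP (1 without Dounce-TRAP of mouse 181) and 1 to 2 in TRAP against Input of Cell (+) Inhibitors (2 without mouse 1361 or 157). No called value changed sign, and the 138 changes of sign were of values called in neither fit. The causes were not tested. DESeq2's size factors moved the median of all genes by over 0.1 in other contrasts too, by -0.21 in the sorts against Cell-Input, -0.35 in the sorts against Tissue-TRAP, and -0.23, 0.13, and 0.12 in TRAP against Input of Dounce, Cell (-) Inhibitors, and Cell (+) Inhibitors. With the mouse as a replicate block 8 of 9 genes rather than 9 were called in Cell-Input and in Cell-TRAP against tissue, 5 rather than 4 in TRAP against Input of the preparation Tissue, and 6 rather than 7 in that of Dounce, and the block changed no other call. The Dounce-TRAP libraries were the shallowest.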
